A study of Mus musculus with 6 samples.

Results

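The enzymes that make and recycle purine and pyrimidine nucleotides were followed in activated CD4 T cells short of arginine. The set was a list of 35 genes named for their place in the pathway, from the synthesis of phosphoribosyl pyrophosphate (PRPP) to ribonucleotide reductase, thymidylate supply and salvage. A probe set carrying the symbol of 1 gene only was required, and the brightest such probe set stood for its gene. This gave 32 of the 35 members, and all 32 were among the 14787 genes tested. Impdh2, Pfas and Nme2 were not analysed here.

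RNA came from CD4 T cells of OT-II transgenic mice aged 12 to 16 weeks, whose T cells carry 1 transgenic receptor for an ovalbumin peptide. In both groups the cells were cultured for 72 hours in RPMI-1640 with 10% dialyzed serum, on antigen-presenting cells loaded with 0.1 uM of that peptide, and CD4 cells were then purified again. The control group (3 arrays) had complete medium and the low arginine group (3 arrays) had 1% of the normal arginine, 12 uM, and the comparison addresses how T cells activated with little arginine differ from those with a full supply. The description of the study names 6 mice, and the labels do not tie mice to arrays. All values are log2 expression values of 1-colour arrays as the authors normalised them. A change is low arginine minus control, so that 1 unit is a doubling, and the threshold was a limma p of 0.05 after Benjamini-Hochberg adjustment over all genes tested.

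A resting T cell lives mostly by salvage, the reuse of bases and nucleosides. After activation it builds purines on PRPP and pyrimidines from glutamine, bicarbonate and aspartate, and it needs these rings for RNA throughout growth. DNA synthesis adds a separate demand, since ribonucleotide reductase must turn ribonucleotides into deoxyribonucleotides and thymidylate must be made or salvaged. Several enzymes of this last branch are known to be made mainly around S phase, whereas partner enzymes that serve mitochondrial DNA or DNA repair are made in cells that do not divide.

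Values over all arrays ran from 0.956 to 12.41, and the array medians lay between 2.97 and 3.03. T cell markers were present, with Cd3e at 10.77 ± 0.04 (SD, n = 3) in control and 10.87 ± 0.08 in low arginine and Cd4 at 10.33 ± 0.12 and 10.09 ± 0.18. Of the B cell markers 5 were tested and 4 were too dim (Ms4a1 among them), and of the macrophage and monocyte markers 6 were tested and 4 were too dim (Lyz2, Adgre1, Cd14 and Mpeg1); 0 of either list passed. Their summed linear levels were 52.2 to 55.9 and 92.5 to 122 in control, and 53.3 to 56 and 104 to 110 in low arginine. Of 7 dendritic cell markers tested 1 fell, the MHC class II gene H2-Ab1 (-3.06, adjusted p = 6.02e-04), and of 3 plasma cell markers 1 fell, Prdm1 (-1.36, 0.00474). At an unadjusted p below 0.05, 0 dendritic cell markers were higher and 2 lower, and 0 plasma cell markers were higher and 1 lower. The median changes of these lists were 0.11 and -0.03, with highest changes of 0.22 and 0.03. Too dim were 2 dendritic cell markers (H2-Aa and Siglech) and 3 plasma cell markers. The summed levels were 344 to 510 and 79.1 to 98.9 in control, and 310 to 370 and 49.8 to 58.1 in low arginine, respectively. A large part of the dendritic cell sum came from its brightest marker, Cd209a, at 7.87 ± 0.35 in control and 8.06 ± 0.15 in low arginine. Of 5 CD8 T and NK cell markers tested 0 passed, at a median of -0.61 (at an unadjusted p below 0.05, 2 were higher and 2 lower), with Cd8b1 at -0.66 (adjusted p = 0.0632) and Eomes at 0.79 (0.0779); the summed level was 161 to 211 in control and 138 to 179 in low arginine. The part of these markers in the results that follow was not tested. In bulk RNA, fewer cells with a transcript and less transcript per cell cannot be told apart.

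In low arginine, 1 of 2 ribonucleotide reductase genes, 2 of 6 salvage genes and 1 of 3 genes between IMP and the purine nucleotides fell, and 1 of 4 thymidylate supply genes rose. Of the 12 tested enzymes of PRPP, purine ring and pyrimidine synthesis, 0 passed the threshold of limma (at an unadjusted p below 0.05, Gart was higher and Paics lower). Differences between these role groups were not tested. The thymidine kinase Tk1, the deoxycytidine kinase Dck, the large ribonucleotide reductase subunit Rrm1 and the IMP dehydrogenase Impdh1 fell, and the dCMP deaminase Dctd rose. These 5 were 15.6% of the 32 members tested, beside 12.2% of all genes tested. By direction, 4 fell (12.5%, beside 6.98% of all genes) and 1 rose (3.12%, beside 5.19%), shares that lie near the background. The median change over the members was -0.08, with a range of -1.46 to 0.92, and the median over all genes tested was 0.01. Control and low arginine arrays did not overlap for 12 of the 32 members (37.5%), and for 32.2% of all genes tested. Of those 12 members 3 were higher in low arginine and 9 lower, beside 16% and 16.2% of all genes. At an unadjusted p below 0.05 there were 4 of the 32 members higher and 8 lower, beside 1971 and 2061 of the 14787 genes tested.

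**Figure D1:**
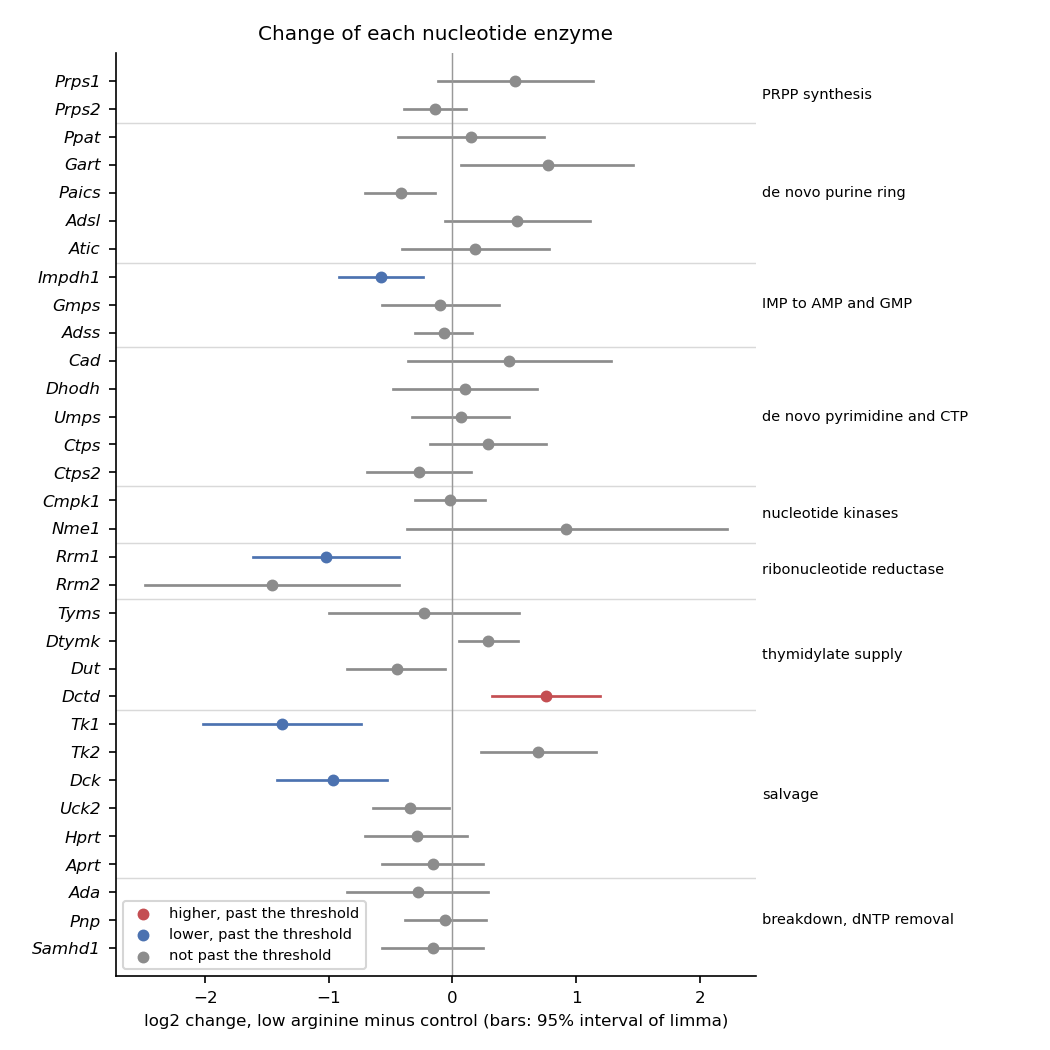
Log2 change (low arginine minus control, 3 arrays each) of the 32 members tested, grouped by role, with the 95% interval of limma as a bar. Tk1, Rrm1, Dck and Impdh1 lie below 0 past the threshold and Dctd above it, at changes of -1.38, -1.02, -0.97, -0.58 and 0.76; the grey members did not pass.

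These counts rest on few arrays. When control replicate 2 was left out, 0 members passed in either direction, and the same held for low arginine replicates 2 and 3, each in turn. Calls were fewer over all genes too. In those fits 162, 161 and 200 of the 14787 genes tested rose and 338, 348 and 392 fell, against 767 and 1032 with all arrays. Without low arginine replicate 1, Tk1, Dck, Rrm1 and Rrm2 passed as lower and 0 members as higher (663 and 332 of all genes). Without control replicate 3 the calls were Tk1 and Dck lower and Tk2 higher (788 and 579 of all genes). Without control replicate 1 there were 9 members higher (11% of all genes rose in that fit) and 4 lower (11.5% of all genes fell). With arrays weighted by how closely they followed the fitted group means, 10 members were higher (18.8% of all genes) and 8 lower (18.5%). The higher ones were Prps1, Ppat, Gart, Adsl, Atic, Cad, Ctps, Dtymk, Dctd and Tk2. The lower ones were Paics, Impdh1, Rrm1, Rrm2, Dut, Tk1, Dck and Uck2. Control replicate 1 had a weight of 0.239, control replicate 2 of 5.19 and control replicate 3 of 0.506, so that control replicate 2 counted most among the controls. In each of these fits the changes of Tk1, Dck, Rrm1 and Impdh1 stayed negative and that of Dctd positive.

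**Figure D2:**
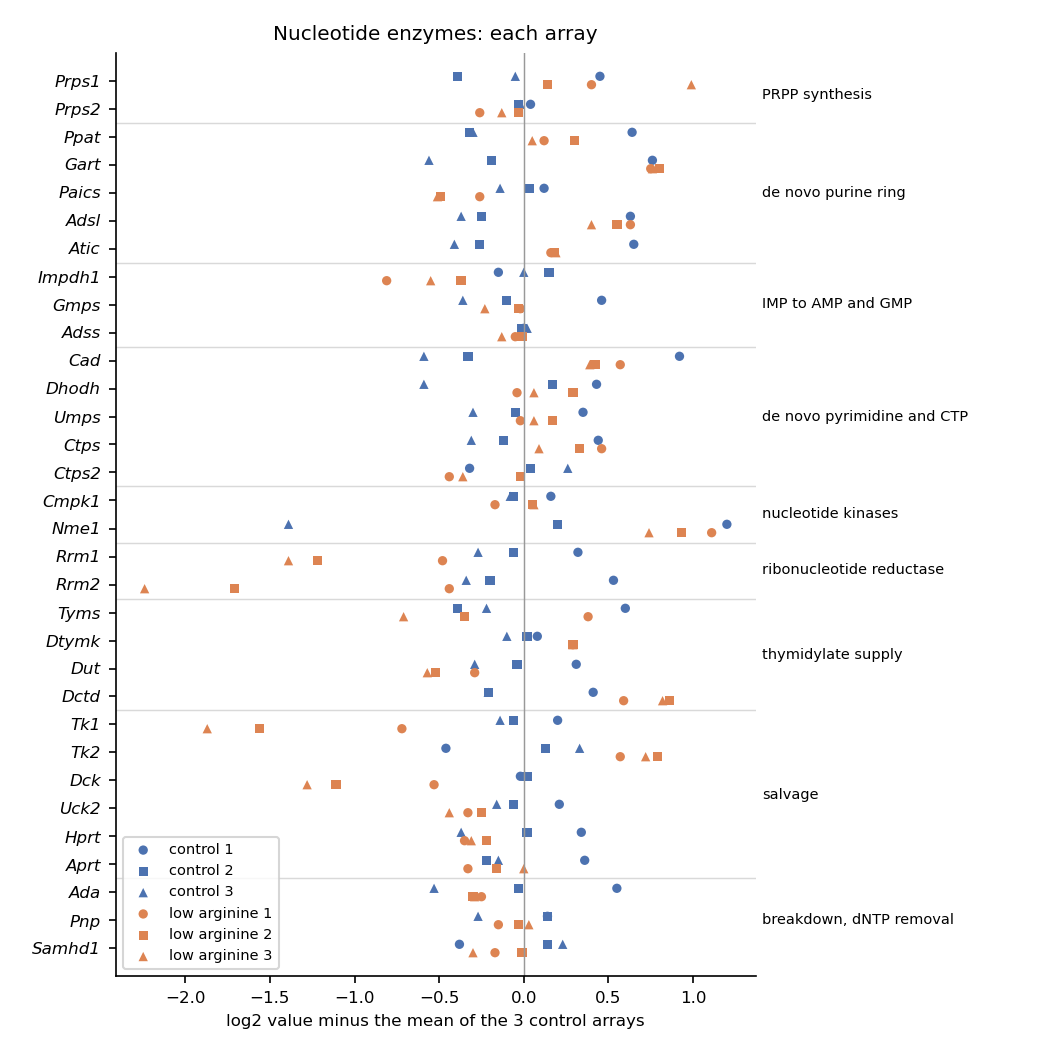
Log2 value of each array minus the mean of the 3 control arrays, for the 32 members tested; blue is control, orange is low arginine, and circles, squares and triangles are replicates 1, 2 and 3. Low arginine points of Rrm1, Tk1 and Dck lie left of every control point, with replicate 1 nearest to them, and in most enzymes of ring synthesis control replicate 1 lies right of the other controls.

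Ribonucleotide reductase converts ribonucleoside diphosphates to their deoxy forms and is the source of new DNA precursors. Its large subunit Rrm1 stood at 9.39, 9.01 and 8.80 in control replicates 1, 2 and 3, and at 8.59, 7.85 and 7.68 in the low arginine replicates. Every low arginine array lay below every control array, and replicate 1 lay closest to the controls. The group means were 9.07 ± 0.30 and 8.04 ± 0.48 (SD, n = 3), a change of -1.02 (SE 0.25, adjusted p = 0.0399). Rrm1 did not pass without control replicate 2 or 3 (adjusted p = 0.121 and 0.0513) or low arginine replicate 2 or 3 (0.144 and 0.141).

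The small subunit Rrm2, which carries the radical that the reaction needs and is made in S phase, had the lowest change of all members and did not pass. It stood at 7.51, 6.78 and 6.64 in control and at 6.54, 5.27 and 4.74 in low arginine. The groups did not overlap, but low arginine replicate 1 lay just below control replicate 3, and the SD was 0.93 within low arginine against 0.46 within control. The change was -1.46 (SE 0.44, adjusted p = 0.0739). Without low arginine replicate 1 it was -1.98 and passed (adjusted p = 0.0143), and with array weights it also passed (-1.33, 0.0126). Rrm2 passed as well with the replicate number as a further term of the fit (adjusted p = 0.0118). A second, dimmer probe set of Rrm2 (2.68 ± 0.30 in control) gave -0.43, with groups that overlapped.

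The salvage kinases of the DNA branch were the members with the lowest adjusted p. Tk1, the cytosolic thymidine kinase, stood at 8.18, 7.92 and 7.84 in control and at 7.26, 6.42 and 6.11 in low arginine. All 3 low arginine values lay below the controls, again with replicate 1 the least reduced. Its means were 7.98 ± 0.18 and 6.60 ± 0.60 (SD, n = 3), 2.61-fold lower in low arginine (log2 change -1.38, SE 0.28, adjusted p = 0.0197). Dck, which phosphorylates deoxycytidine and the purine deoxynucleosides, stood at 7.50, 7.54 and 7.53 in control and at 6.99, 6.41 and 6.24 in low arginine. The controls of Dck spread by an SD of only 0.02, against 0.40 in low arginine, and the change was -0.97 (SE 0.19, adjusted p = 0.0183), 1.96-fold lower. Both calls were lost when control replicate 2, or the second or the third low arginine array, was left out (adjusted p = 0.0666 to 0.0884 for Tk1 and 0.0679 to 0.0851 for Dck).

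The 4 genes whose low arginine values were the lowest relative to control are shown with the 120 bases before their start site, because Tk1, Dck, Rrm1 and Rrm2 shared the order of the arrays within low arginine. The stretches are from RefSeq, build GRCm38.p6, 5′ to 3′ on the strand of the gene. Capitals mark CCAAT, the sequence bound by the factor NF-Y, on either strand. Rrm1 lies at chr7:102441575-102441694 on the plus strand, Rrm2 at chr12:24708134-24708253 on the plus strand, Tk1 at chr11:117826015-117826134 on the minus strand and Dck at chr5:88764893-88765012 on the plus strand.
Rrm1: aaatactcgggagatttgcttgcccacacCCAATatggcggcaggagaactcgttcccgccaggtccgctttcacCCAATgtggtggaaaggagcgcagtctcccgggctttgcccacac
Rrm2: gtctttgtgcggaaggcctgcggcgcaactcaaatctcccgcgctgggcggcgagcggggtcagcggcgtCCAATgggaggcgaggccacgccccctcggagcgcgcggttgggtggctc
Tk1: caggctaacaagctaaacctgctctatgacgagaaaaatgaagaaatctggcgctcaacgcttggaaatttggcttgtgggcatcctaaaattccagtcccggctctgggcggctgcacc
Dck: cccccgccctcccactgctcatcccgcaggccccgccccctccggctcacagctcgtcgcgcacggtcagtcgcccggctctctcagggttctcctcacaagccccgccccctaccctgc

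Rrm1 held CCAAT at 91 and 45 bases before the start and Rrm2 at 50 bases, and no other motif searched was found in the 300-base windows of these 4 genes (250 bases before to 50 after the start). The motifs were CACGTG, the E-box of MYC and MAX; TTCGCGC and TTGGCGC, core forms of the E2F site; CCAAT; and GATGCAA, the core of the ATF4 amino acid response element, each on both strands. Other forms of these sites, the E2F site among them, were not searched. RefSeq windows were at hand for 33 of the 35 members (41 windows), and Pfas and Dhodh were not matched. CCAAT was in the windows of 13 members, or 34.1% of the member windows, and in 37.4% of all 32851 promoter windows. CACGTG was in those of 6 members, Atic, Dtymk, Impdh2, Nme1, Paics and Tyms (17.1% of member windows, 7.15% of all). TTCGCGC was in those of Atic and Ctps (4.88%, and 1.59% of all), TTGGCGC in those of Adss, Dtymk and Impdh2 (7.32%, and 2.45% of all), and GATGCAA in 0 member windows (2.53% of all). A match in such a window is a description of the letters and not a bound site.

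Rrm2 and Tk1 each have a partner enzyme that serves outside S phase, Rrm2b and Tk2, and Dck has a mitochondrial counterpart, Dguok. Of these Rrm2b passed and Tk2 and Dguok did not. Rrm2b, the small reductase subunit induced by p53, is no member of the list. It stood at 5.24, 5.36 and 5.36 in control and at 5.81, 6.12 and 6.03 in low arginine, and it rose by 0.67 (SE 0.12, adjusted p = 0.0138). That call was lost on leaving out control replicate 2 (adjusted p = 0.0576), low arginine replicate 2 (0.0682) or its replicate 3 (0.0656). Tk2, the thymidine kinase of mitochondria, stood at 5.61, 6.20 and 6.40 in control and at 6.64, 6.86 and 6.79 in low arginine. All low arginine values of Tk2 lay above the controls, with a change of 0.69 (SE 0.20, adjusted p = 0.0647), and it passed without control replicate 1 (0.46, adjusted p = 0.0316) or control replicate 3 (0.86, 0.0414). Tk2 also passed with array weights and with the replicate number as a further term of the fit. Dguok, the mitochondrial deoxyguanosine kinase, stood at 5.44 ± 0.05 and 5.84 ± 0.20 (SD, n = 3), a change of 0.40 (adjusted p = 0.0869) with no overlap between groups.

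The log2 ratio of each pair within an array sets no level of one probe set against another. Rrm2b over Rrm2 lay 0.93, 2.51 and 2.95 above the control mean in low arginine replicates 1, 2 and 3, with a mean of 2.13. Tk2 over Tk1 lay 1.28, 2.35 and 2.59 above it, with a mean of 2.07, and Dguok over Dck by 0.71, 1.54 and 1.86, with a mean of 1.37. In all 3 pairs the low arginine ratios lay above every control ratio. For the synthetases Prps1 over Prps2 (0.65) and Ctps over Ctps2 (0.56) the groups overlapped. These 5 pairs were chosen after the values had been seen, and an exact permutation test of 3 arrays against 3 cannot go below 0.1, so the ratios are a description with no test.

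**Figure D3:**
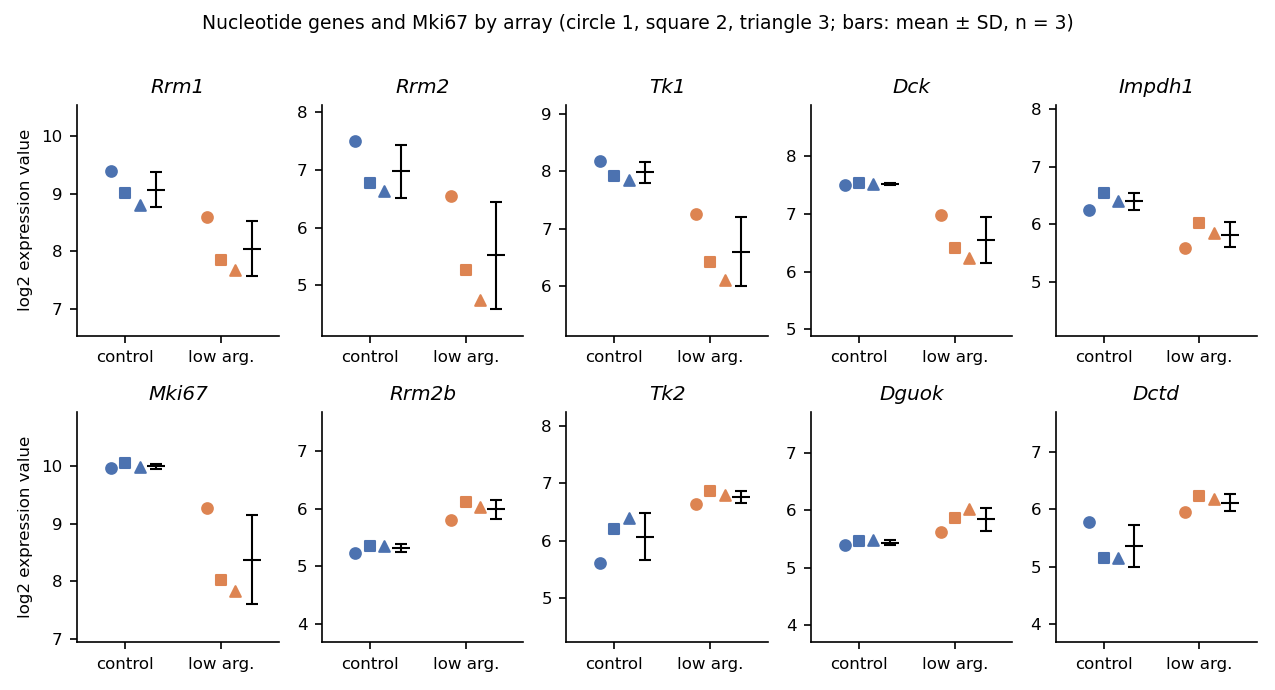
Log2 expression value by array for Rrm1, Rrm2, Tk1, Dck, Impdh1, Mki67, Rrm2b, Tk2, Dguok and Dctd; symbols are replicates 1 (circle), 2 (square) and 3 (triangle), bars are mean ± SD (n = 3), and every panel spans the same number of log2 units. Rrm1, Rrm2, Tk1, Dck and Mki67 are lower in low arginine with replicate 1 the highest of its group, and Rrm2b, Tk2, Dguok and Dctd are higher.

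Some proliferation markers were lower too, again with replicate 1 the highest of the low arginine arrays. Mki67 stood at 9.97, 10.05 and 9.99 in control and at 9.27, 8.03 and 7.83 in low arginine, a change of -1.63 (adjusted p = 0.0228), a call lost without control replicate 2 or 3 (0.0914 and 0.0554) or the corresponding low arginine arrays (0.0967 and 0.0813). Of 18 markers tested 8 fell (44.4%, beside 6.98% of all genes), 0 rose (beside 5.19%) and 10 did not pass. Those with the lowest adjusted p were the mitotic kinases Bub1 (-2.63, adjusted p = 0.00397) and Plk1 (-2.54, 0.00958), the survival factor Birc5 (-2.47, 0.0117) and the cyclin Ccna2 (-1.99, 0.0143). Fits without 1 array called 2, 6 and 9 of them lower for controls 2, 3 and 1, and 9, 1 and 4 for low arginine replicates 1, 2 and 3. Without control replicate 1, and with array weights, 1 marker also passed as higher. In all 18 low arginine replicate 1 was the highest of its group, beside 31.1% of all genes. Low arginine replicate 1 was also the highest of its group for Rrm1, Rrm2, Tk1 and Dck, and for 13 of the 32 members (40.6%). Control replicate 1 was the highest control in 14 of the 18 markers (77.8%, beside 40.1% of all genes), and in Rrm1, Rrm2 and Tk1 but not in Dck. The 6 replication helicase genes Mcm2 to Mcm7 did not pass, with Mcm2 at 0.56 (adjusted p = 0.217) and the others between -0.33 (Mcm7, 0.272) and -0.02 (Mcm5, 0.963). The part of proliferation in the lower Tk1, Dck and Rrm1 was not tested.

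Thymidylate is made from dUMP, and of the 4 enzymes around this step 1 passed. Dctd, which turns dCMP into dUMP, stood at 5.77, 5.15 and 5.15 in control and at 5.95, 6.22 and 6.18 in low arginine. All low arginine values lay above control replicate 1, and by more above the other controls. Dctd rose by 0.76 (SE 0.19, adjusted p = 0.039), 1.69-fold. The call held in the fit without control replicate 1 (0.96, adjusted p = 0.00201), and was lost in each of the other 5 fits with 1 array left out (0.072 to 0.143) and with arrays centred on their 75th percentile (0.0526). The call was also lost with the replicate number as a further term of the fit (0.0681).

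Tyms, the thymidylate synthase itself, stood at 6.84, 5.85 and 6.02 in control and at 6.62, 5.89 and 5.53 in low arginine. Replicate 1 was the highest array in each group and the groups overlapped, with a change of -0.23 (SE 0.33, adjusted p = 0.729). Dut, which removes dUTP and yields dUMP, differed by -0.45 (adjusted p = 0.129; -0.23 on its second probe set), and Dtymk, which phosphorylates dTMP, by 0.29 (0.112). The low arginine arrays of Dtymk all stood at 7.55, above control values of 7.34, 7.28 and 7.16. Neither gene passed in the main fit, although the groups of neither overlapped. Both passed with array weights, Dut as lower (adjusted p = 0.0126) and Dtymk as higher (0.0193).

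The enzymes that salvage whole bases and ribonucleosides did not pass. Hprt, which recovers hypoxanthine and guanine, differed by -0.29 (95% interval -0.71 to 0.12, adjusted p = 0.357), and Aprt, which recovers adenine, by -0.16 (-0.57 to 0.25, 0.632). Uck2, the uridine and cytidine kinase, stood at 9.90, 9.63 and 9.53 in control and at 9.36, 9.44 and 9.25 in low arginine, a change of -0.34 (adjusted p = 0.143) without overlap. The second probe set of Uck2 was lower by more, at 6.30 ± 0.10 and 5.54 ± 0.12 (SD, n = 3), a difference of -0.76. With the mean of both probe sets, Uck2 passed as lower (-0.55, adjusted p = 0.0178).

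De novo purine synthesis builds the ring on PRPP, and here the calls turned on 1 control array. The PRPP synthetases Prps1 and Prps2 differed by 0.51 (adjusted p = 0.278) and -0.14 (0.469). Of the 5 ring enzymes tested, 0 passed, at a median change of 0.18. Gart, which carries out 3 of the steps, stood at 7.41, 6.46 and 6.09 in control and at 7.40, 7.45 and 7.41 in low arginine. The low arginine arrays lay close to each other and to control replicate 1, and above control replicates 2 and 3. The change was 0.77 (SE 0.30, adjusted p = 0.145). A dimmer probe set of Gart (3.96 ± 0.15 in control) gave 0.22 with no overlap between groups. Another gave -0.08, at 2.34 ± 0.07 in control and 2.26 ± 0.10 in low arginine, below the limit of 2.48 for dim genes. The mean of all 3, which includes that dim probe set, gave 0.30 (adjusted p = 0.215).

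Adsl, the adenylosuccinate lyase, showed the same form, at 7.29, 6.41 and 6.29 in control and 7.29, 7.21 and 7.06 in low arginine (change 0.52, adjusted p = 0.23). Ppat, which commits PRPP to purines, stood at 7.72, 6.76 and 6.78 in control and at 7.20, 7.38 and 7.13 in low arginine, between the controls (change 0.15, adjusted p = 0.772). Atic, which closes the ring to IMP, stood at 7.76, 6.85 and 6.70 in control and at 7.27, 7.29 and 7.30 in low arginine (0.18, adjusted p = 0.714). In these 4 enzymes every low arginine array lay above control replicates 2 and 3, and the highest stood near or below control replicate 1.

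With control replicate 1 left out these enzymes passed as higher in low arginine, Gart by 1.14 (adjusted p = 0.00145), Adsl by 0.84 (0.00299), Atic by 0.51 (0.0128) and Ppat by 0.47 (0.0261). Without control replicate 3 the change of Atic was -0.02 and that of Ppat 0.00. Control replicate 1 was the highest control for 26 of the 32 members (81.2%), and for 40.1% of all genes tested. It stood apart from the other controls on the second principal component of all genes (score 35.15 against -8.528 and -22.33). The labels name no difference in how that array was made, and the cause was not tested.

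Paics, which adds carbon dioxide and aspartate to the ring, went against its neighbours. It stood at 8.23, 8.14 and 7.97 in control and at 7.85, 7.62 and 7.60 in low arginine, with no overlap. The change was -0.42 (SE 0.12, adjusted p = 0.0652), between -0.50 and -0.36 with any 1 array left out, and it passed in none of those fits. It did pass with array weights (-0.45, 0.00501).

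**Figure D4:**
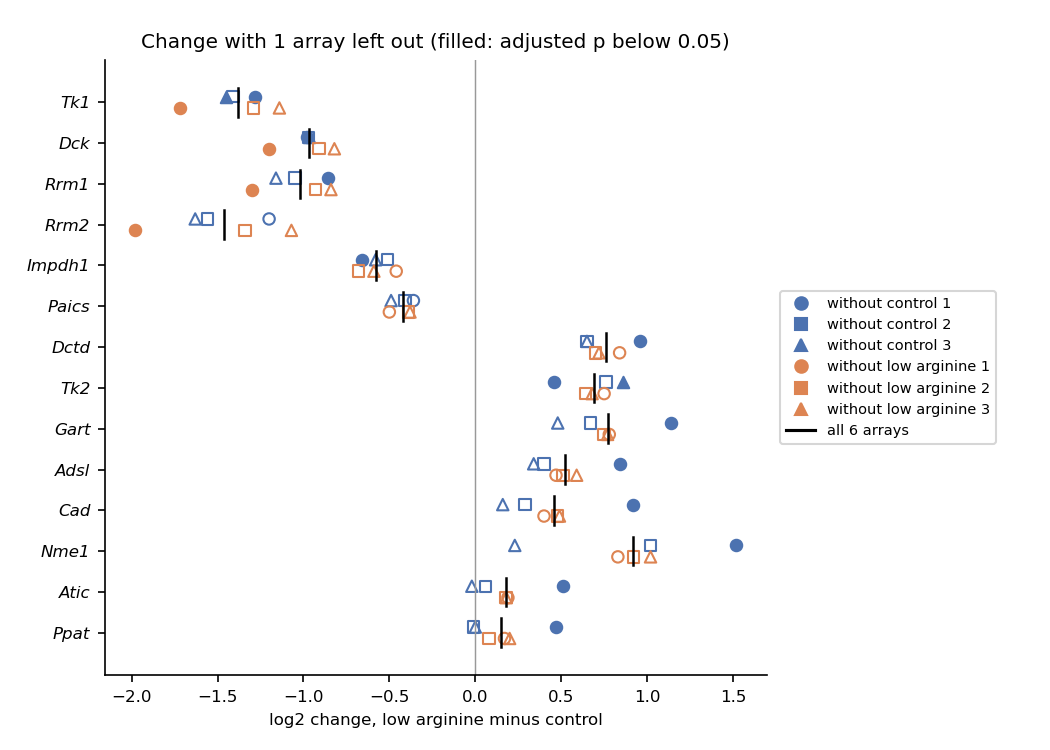
Log2 change (low arginine minus control) of 14 members with 1 array left out at a time; the black line is the change over all 6 arrays, blue symbols leave out a control and orange ones a low arginine array, and filled symbols passed the threshold. Gart, Adsl, Cad, Nme1, Atic and Ppat move right and pass without control replicate 1, while Tk1, Dck, Rrm1 and Rrm2 move left and pass without low arginine replicate 1.

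From IMP the path splits to AMP and GMP. Impdh1, an IMP dehydrogenase on the way to GMP, stood at 6.25, 6.55 and 6.40 in control and at 5.59, 6.03 and 5.85 in low arginine. Every low arginine value lay below the lowest control, and unlike in Rrm1, Tk1 and Dck, replicate 1 was the lowest of its group. Impdh1 fell by 0.58 on the log2 scale (SE 0.15, adjusted p = 0.0418), 1.5-fold. It stayed past the threshold without control replicate 1 (adjusted p = 0.0177), but not without any other single array (0.0694 to 0.149) or with a trended and robust prior (0.0528). Gmps, which makes GMP, differed by -0.10 (95% interval -0.57 to 0.38, adjusted p = 0.818). Adss, which starts the AMP branch, ran from 8.34 to 8.49 over all arrays, with a difference of -0.07 (-0.30 to 0.16, 0.738).

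In de novo pyrimidine synthesis 0 of 5 enzymes passed, with a median change of 0.10. Cad, the enzyme of the opening steps, stood at 7.01, 5.76 and 5.50 in control and at 6.66, 6.51 and 6.48 in low arginine. Its low arginine values stood in the gap between control replicate 1 and the other controls, and the change was 0.46 (95% interval -0.36 to 1.28, adjusted p = 0.476). Without control replicate 1 it was 0.92 and passed (adjusted p = 0.0027). Dhodh, in the mitochondrial membrane, and Umps, which completes UMP, differed by 0.10 (adjusted p = 0.852) and 0.07 (0.858). The CTP synthetases went apart, Ctps by 0.29 (adjusted p = 0.426) and Ctps2 by -0.27 (0.406), and Ctps passed without control replicate 1 (0.51, 0.0361).

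Among the kinases that raise nucleotides to di- and triphosphates, Cmpk1, for UMP and CMP, differed by -0.02 (95% interval -0.30 to 0.26, adjusted p = 0.94). Nme1, a nucleoside diphosphate kinase, had the highest change of all members and the widest control spread. It stood at 7.08, 6.08 and 4.49 in control and at 6.99, 6.81 and 6.62 in low arginine. The low arginine values lay within the range of the controls, and the change of 0.92 (SE 0.56, adjusted p = 0.347) was 0.23 without control replicate 3 and 1.52 without control replicate 1 (adjusted p = 0.0297).

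The enzymes that break nucleosides down or remove deoxynucleotides did not pass. Ada, the adenosine deaminase, differed by -0.28 (95% interval -0.85 to 0.29, adjusted p = 0.542), and Pnp, the purine nucleoside phosphorylase, by -0.06 (-0.38 to 0.27, 0.854). Pnp stood at only 3.30 ± 0.23 in control and 3.25 ± 0.09 in low arginine (SD, n = 3). That is not far above the limit of 2.48 used for dim genes, so a change of Pnp could be missed. Loss of Ada or Pnp is known to deplete T cells. Samhd1, which hydrolyses deoxynucleoside triphosphates, stood at 9.90, 10.42 and 10.51 in control and at 10.11, 10.27 and 9.98 in low arginine, a change of -0.16 (-0.57 to 0.25, adjusted p = 0.64). Here control replicate 1 was the lowest array of all.

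Outside the list, 66 further genes of nucleotide metabolism were looked up, of which 55 were matched and 44 tested. Of these 3 rose and 4 fell (15.9% in all), beside 12.2% of all genes. Ak4, the mitochondrial adenylate kinase, fell from 6.42 ± 0.19 to 3.50 ± 0.37 (SD, n = 3), a change of -2.92 (adjusted p = 5.75e-04). Entpd1, the CD39 ectoenzyme that hydrolyses extracellular ATP, fell from 5.59 ± 0.36 to 3.80 ± 0.02, a change of -1.79 (adjusted p = 0.00211). Xdh, which oxidises hypoxanthine to urate, fell from 4.44 ± 0.24 to 2.71 ± 0.17, a change of -1.73 (adjusted p = 0.00137), to a level near the limit of 2.48 used for dim genes. Ak4, Entpd1 and Xdh passed in every fit that left out 1 array (highest adjusted p = 0.0079, 0.0192 and 0.0112).

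Smaller changes were those of Nme7, which fell by 0.57 (adjusted p = 0.0462), Prpsap2, a regulatory partner of the PRPP synthetases, which rose by 0.74 (0.0143), and Slc29a3, a nucleoside transporter of lysosomes, which rose by 0.51 (0.0319). The call of Nme7 was lost in each fit with 1 array left out (adjusted p = 0.0525 to 0.158) except that without control replicate 3 (0.0189). That of Slc29a3 was lost in each such fit (0.0701 to 0.126) except that without control replicate 1 (0.012), and the mean of its probe sets gave 0.32 (0.133). That of Prpsap2 was lost on leaving out control replicate 2 (0.0664) or any low arginine array (0.0513 to 0.0705). Mthfd1, which supplies formyl groups for the purine ring, resembled Gart, at 6.94, 5.81 and 5.41 in control and 6.85, 6.85 and 6.81 in low arginine (0.78, adjusted p = 0.19). Myc, a factor known to drive ring synthesis genes, differed by 0.24 (95% interval -0.04 to 0.51, adjusted p = 0.258).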

How the data were processed

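Per the submitters' processing notes the authors used the oligo package, with version and steps not given in the sources used here, and deposited normalised log2 values per probe set of 1-colour whole-transcript arrays. Base 2 was inferred from the range of the values and the array type. There were no detection calls. Of 41345 probe sets, 23521 had 1 gene symbol in the platform annotation, 1814 had several and 16010 none. Taking the brightest probe set by mean gave 22180 genes; the dimmest share of 0.333 (7393 genes, limit 2.48) was left out and 14787 genes entered the test.

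The test was limma 3.58.1 under R 4.3.3 with lmFit and eBayes and the group as its only term; it was two-sided, with 4 residual and 3.69 prior degrees of freedom, adjusted by Benjamini-Hochberg over all genes entered. The number of arrays limits the precision. The labels call the arrays biological replicates without tying them to mice, so p-values measure the spread between arrays.

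The rule for names took in all 35 members, with array values for those past the threshold, and up to 4 genes past it in each direction from the pathway and proliferation lists, with Myc, Mki67 and Rrm2b whatever their result; 1 further gene of that rule is not reported here. Cd4, Dguok, Mthfd1 and the Mcm genes fall outside the rule and were chosen with their values in view. Members and lists were chosen with earlier results of these data known. Of 189 list entries 165 were matched by symbol. Promoters came from RefSeq (GRCm38.p6); no coordinates of probe sets were used. Alternatives were quantile normalization, centring on the median or 75th percentile, no filter on dim genes or one of 0.5, the mean of probe sets, a trended and robust prior, array weights, a replicate block and leaving out each array. Figures were drawn with matplotlib 3.10.9.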

Additional observations from a re-analysis of the deposited data

How the results depend on the processing

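With 1 array left out, the members that passed numbered 0 to 9 as higher and 0 to 4 as lower, the further pathway genes as higher 0 to 9, and all genes 161 to 1626 as higher and 338 to 1699 as lower. With array weights 10 members were higher and 8 lower, 11 and 10 further pathway genes, and 2777 and 2737 of all genes. Centred on the 75th percentile, which moved the median of all genes from 0.01 to -0.05, 0 members were higher (Dctd 0.70, adjusted p = 0.0526), and all genes split 535 higher to 1190 lower, against 767 to 1032. Deviations of same-numbered arrays correlated at 0.1205, 0.0588 and 0.1407 over genes. Those of arrays with different numbers correlated at -0.1338 to 0.0426, below each of these values. Deviations from the group means cancel within a group, so higher values for same-numbered arrays go with lower ones for the rest. The contrast is therefore no separate observation. The labels do not say that the numbers pair the arrays, so the main fit had no term for them, and pairing was not tested. With the replicate block, 1 member was higher (Tk2, adjusted p = 0.0438) and 5 lower (Rrm2 added, 0.0118), Dctd lost its call (0.0681), and all genes split 632 to 936. The median change of the members ranged from -0.14 to 0.04, within the spread of 0.20 between arrays. Tk1, Dck and Rrm1 kept their calls in all 9 settings that used every array, Impdh1 in 8 and Dctd in 7.

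Signs turned only in members that did not pass over all 6 arrays. With 1 array left out, Ppat ranged from -0.01 to 0.47 (0.00 without control replicate 3), Atic from -0.02 to 0.51, Gmps from -0.28 to 0.13, Dhodh from -0.20 to 0.32, Umps from -0.08 to 0.24, Cmpk1 from -0.06 to 0.05, Tyms from -0.53 to 0.07 (0.01 without low arginine replicate 3), Aprt from -0.27 to 0.02, Ada from -0.54 to 0.00 and Pnp from -0.19 to 0.01. With array weights, Gmps (0.01), Cmpk1 (0.05), Tyms (0.08) and Aprt (0.03) turned. The cause was not tested.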
